A study of Homo sapiens with 30 samples.

Results

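The 5292 constitutive open sites were chosen by a single property of the ATAC-Seq peak lists: a site had a peak in all 9 samples. Peaks of the 9 lists that shared at least 1 bp on hg38 were merged into 40005 sites, and the 5292 were those present in every list. Because presence in each list chose them, that presence is a description and was not tested. The strength of the peaks, their position, the sequence under them, MYC binding and nascent transcription were not part of the choice, although a strong or wide peak is more likely to be found in every list.

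The cells were G401, an established malignant rhabdoid tumour line in which the SNF5 (SMARCB1) subunit of the SWI/SNF chromatin remodeller is missing. Populations carried a lentiviral, doxycycline-inducible pInducer20 vector for HA-tagged EGFP (the control), OmoMYC (a dominant-negative form of the MYC dimerisation domain, labelled OMOMYC) or SNF5, and all were treated with 1 µg/ml doxycycline for 24 h. All groups therefore share the drug, the vector, G418 selection and the tumour background, and SNF5 replaces a subunit that the EGFP and OmoMYC cells lack. ATAC-Seq and PRO-Seq were done in 3 samples per construct, and MYC ChIP-Seq in 2; the study describes its ChIP-Seq and PRO-Seq replicates as independent experiments and its ATAC-Seq replicates as biological, while the labels give only replicate numbers.

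ATAC-Seq inserts a transposase into DNA that is not packed tightly into nucleosomes, so its peaks mark promoters, enhancers and insulators. Active promoters of broadly used genes usually keep a nucleosome-depleted region just upstream of the transcript start in every cell, often within a CpG island. SWI/SNF remodellers slide and evict nucleosomes, chiefly at enhancers, while MYC binds E-box DNA in promoters that are already open. Sites open under all 3 constructs are part of the setting in which either factor acts. Sites that gained or lost a peak in any sample are outside this set.

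The lists held 9208 to 17817 peaks in EGFP samples, 7260 to 23684 in OmoMYC samples and 22722 to 33596 in SNF5 samples. OmoMYC replicate 1 was the shortest and stood apart: its ranks of the constitutive sites correlated with those of the other samples at 0.548 to 0.60 (Spearman, across sites), against 0.687 to 0.825 between the other samples. Of the 2435 sites with a peak in 8 lists, 1615 lacked one there, and leaving it out gave 6907 constitutive sites. None of the 9 lists held a peak at SMARCB1. EGFP replicate 2 and OmoMYC replicate 2 alone held peaks over exon 2 and exon 3 of MYC, with −log10 q of 77.8 and 70.3 in the EGFP sample and 39.9 and 38.2 in the OmoMYC sample. Both therefore stand apart from their own groups. Whether these exon peaks come from the chromosomal gene or from other DNA that carries MYC coding sequence was not tested, so it is open to doubt what these libraries hold at MYC, and rank comparisons were repeated without each. In PRO-Seq, SMARCB1 gene body counts were 1 to 6 in EGFP and OmoMYC samples and 2870, 4467 and 3440 in SNF5 samples. Blood and endothelial markers were near 0 in PRO-Seq, at summed levels of 0.0285 to 0.233 and 0.00463 to 0.101 RPKM (reads per kilobase, scaled to the library's gene body total), and PECAM1 was at 0 in all samples, while mesenchymal and epithelial markers summed to 29.1 to 64.4 and 23.9 to 51.9. The sums came from few members. In EGFP replicate 1 VIM, COL1A1 and COL1A2 stood at 28.1, 4.57 and 2.38, but FN1 and TWIST1 at 0.00346 and 0. In the same sample KRT8 and KRT18 stood at 7.10 and 42.3, but CDH1, EPCAM and KRT19 at 0.0239, 0.0357 and 0.00760. Of the 4 lists' markers only VIM, an intermediate filament gene, had a constitutive site at its start.

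The constitutive sites were mostly promoters. The summit of 4835 of the 5292 (91.4%, exact 95% interval 90.6 to 92.1) lay within 1 kb of a GENCODE transcript start, 128 lay between 1 and 5 kb, and 329 (6.22%) were distal, at 5 kb or more or on a chromosome with no start listed. Among sites with a peak in 1 to 8 lists, 31.6% lay within 1 kb. The share was 22.9% for sites found in 1 list and 68.5% for those found in 8. With starts of protein-coding genes alone the share of constitutive sites was 86.5%. The summit of the strongest peak fell in an exon at 31.7%, in an intron at 25.9% and between genes at 42.4% of the sites. The peak lists hold no read counts, so the intervals cover only the sampling of sites.

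**Figure D1:**
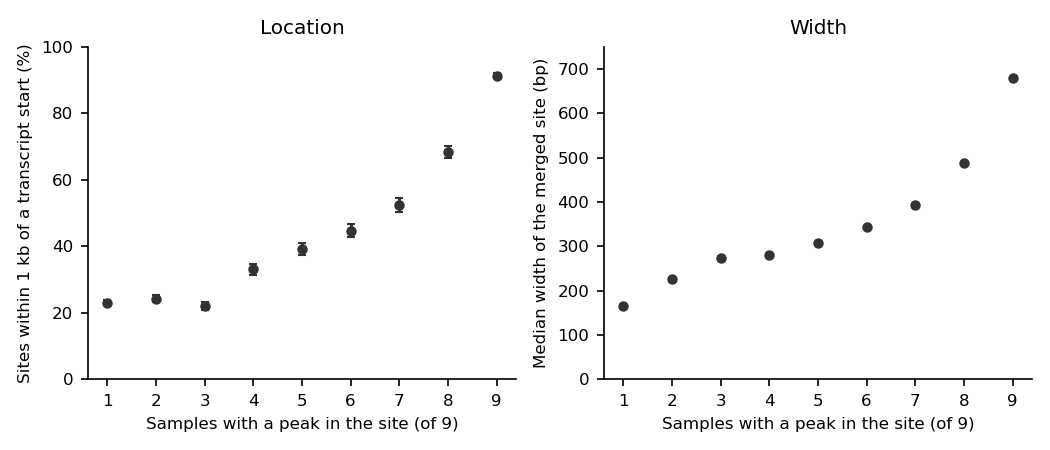
Merged sites grouped by the number of ATAC-Seq samples with a peak (1 to 9). The left panel gives the percentage with a summit within 1 kb of a transcript start, with exact 95% binomial intervals, and the right panel the median width in bp. Sites with a peak in all 9 samples reach 91.4% and 680 bp.

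Within the promoter class, summits clustered just upstream of the start. Of the 4835 constitutive promoter sites, 70.6% had the summit 1 to 200 bp upstream, 19.9% had it 0 to 200 bp downstream, and the rest lay further off. For promoter sites found in fewer lists the share 1 to 200 bp upstream was 47.7%. Starts of protein-coding genes on both strands lay within the reach of 16.8% of constitutive sites at such starts (15.8 to 17.9), of 11.1% of sites with a peak in 8 lists and of 9.27% of those with a peak in 1 to 8.

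The merged sites were wide, with a median of 680 bp and a range of 205 to 3066 bp. A union of more peaks is wider by construction, so widths were also read within each list. There, the median peak in a constitutive site was 279 to 382 bp wide in EGFP replicates 1 and 3 and OmoMYC replicates 1 and 3, and 450 to 599 bp in the other samples, against 181 to 227 bp for all other peaks of the 9 lists. The widest were 2 sites on the mitochondrial genome (3066 and 2561 bp) and a 2254 bp site on chromosome 21. Next came the promoters of GOLIM4, a Golgi membrane protein gene, at 1857 bp (chr3:168094783-168096639), and of EOLA1-DT at 1836 bp (chrX:149539248-149541083).

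Promoter sequence was read from RefSeq windows (GRCh38.p14, 250 bp before to 50 bp after the start). Of 34943 windows, 6161 overlapped a constitutive site, and these windows covered 3962 of the 5292 sites. The windows were rich in CpG: the observed over expected CpG ratio had a median of 0.868 under constitutive sites, 0.850 under other ATAC-Seq sites and 0.296 where no list had a peak. GC content had medians of 66.0%, 67.0% and 51.3%. A ratio of at least 0.6 was found in 94.4%, 84.9% and 24.2% of windows.

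The following are the 250 bases upstream of the start at 6 constitutive promoters, read from RefSeq on the strand of the gene, with any matched motif in capitals. MRPL50, a gene of the mitochondrial ribosome that starts beside ZNF189, is shown as one of the highest ranked of the listed promoters, and the other 5 because they are among the promoters whose ranks differed most between constructs.
MRPL50 (chr9:101398619-101398868, minus strand): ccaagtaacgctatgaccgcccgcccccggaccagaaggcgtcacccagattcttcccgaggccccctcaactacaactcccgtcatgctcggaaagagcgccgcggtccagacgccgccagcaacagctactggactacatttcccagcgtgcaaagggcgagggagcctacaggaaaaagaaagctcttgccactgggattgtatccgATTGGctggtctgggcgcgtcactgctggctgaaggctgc
ETV3 (chr1:157138396-157138645, minus strand): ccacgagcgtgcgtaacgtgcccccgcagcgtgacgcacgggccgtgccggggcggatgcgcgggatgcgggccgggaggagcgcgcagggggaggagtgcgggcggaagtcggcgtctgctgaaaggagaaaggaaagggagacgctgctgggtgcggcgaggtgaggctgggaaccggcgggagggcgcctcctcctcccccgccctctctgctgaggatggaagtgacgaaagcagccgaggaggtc
KLHL20 (chr1:173714731-173714980, plus strand): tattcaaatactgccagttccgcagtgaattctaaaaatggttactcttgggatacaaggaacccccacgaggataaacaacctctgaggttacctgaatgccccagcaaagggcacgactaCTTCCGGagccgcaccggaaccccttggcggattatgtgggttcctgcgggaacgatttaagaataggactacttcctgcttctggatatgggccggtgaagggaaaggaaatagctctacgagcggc
IARS1 (chr9:92293698-92293947, minus strand): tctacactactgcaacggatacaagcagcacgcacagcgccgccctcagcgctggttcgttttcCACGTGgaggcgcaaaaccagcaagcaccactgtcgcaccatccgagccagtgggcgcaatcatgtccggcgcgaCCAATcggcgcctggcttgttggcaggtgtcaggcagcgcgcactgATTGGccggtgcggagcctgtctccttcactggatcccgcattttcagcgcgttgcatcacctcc
TRMT10C (chr3:101561618-101561867, plus strand): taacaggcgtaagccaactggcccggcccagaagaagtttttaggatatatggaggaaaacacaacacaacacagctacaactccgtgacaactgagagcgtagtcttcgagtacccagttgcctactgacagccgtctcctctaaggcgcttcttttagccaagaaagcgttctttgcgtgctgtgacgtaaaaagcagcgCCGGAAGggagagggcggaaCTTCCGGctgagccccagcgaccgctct
XRCC6 (chr22:41621045-41621294, plus strand): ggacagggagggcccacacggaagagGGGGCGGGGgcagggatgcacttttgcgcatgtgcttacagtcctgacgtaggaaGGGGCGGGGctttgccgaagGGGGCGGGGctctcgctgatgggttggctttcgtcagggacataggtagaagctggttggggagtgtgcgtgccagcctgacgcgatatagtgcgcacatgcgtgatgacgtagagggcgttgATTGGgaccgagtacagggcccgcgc
The MRPL50 stretch held the NF-Y core CCAAT, read as ATTGG on this strand and first matched 40 bases upstream of the start. KLHL20 held 1 ETS word (CCGGAAG) 128 bases upstream and TRMT10C held 2, at 48 and 28 bases. IARS1 held an E-box (CACGTG) 186 bases upstream, with CCAAT in both orientations at 111 and 65 bases. XRCC6 held 3 GC boxes (GGGGCGGGG) and 1 CCAAT box. ETV3 held none of the words searched.

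Most motif words were more frequent in open promoters than in closed ones. Words were searched on both strands of the 300 bp windows. CCAAT was in 44.3% of the 6161 windows under constitutive sites (43.0 to 45.5), in 30.4% of windows under other sites, in 33.3% of those with no peak and in 34.6% of all windows. The GC box was in 30.1%, 27.6%, 7.70% and 15.7% of the same sets, and the ETS word in 21.6%, 19.1%, 4.12% and 10.2%. The E-box bound by MYC:MAX was in 10.7% under constitutive sites, 9.64% under other sites, 5.46% with no peak and 7.23% of all windows. NRF1 (GCATGCGC) stood at 6.87%, 5.40%, 1.16% and 3.02%, and YY1 (AAGATGGCG) at 4.56%, 3.76%, 0.303% and 1.75%. The CTCF word CAGGGGGCG stood at 4.25%, 5.0%, 1.21% and 2.51%. Lower under constitutive sites than in closed promoters were AP-1 (TGANTCA), at 2.91% against 9.87% with no peak and 7.72% of all windows, the TATA box word TATAAA, at 3.62% against 16.1% and 11.6%, and the TEAD word GGAATG, at 9.58% against 16.4% and 14.0%. These sets also differ in GC content, given above, and its part in the shares was not tested.

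Constitutive promoters were frequent at CCT chaperonin and tRNA charging genes and scarce at olfactory receptor, keratin and HOX genes. Of 19869 protein-coding genes, 5365 (27.0%, 26.4 to 27.6) had a constitutive site within 1 kb of a start, 6782 had a site found in fewer lists and 7722 had none. All 8 genes of the CCT chaperonin, which folds actin and tubulin, had one. So did 24 of 35 aminoacyl-tRNA synthetase genes, 7 of 10 cohesin and CTCF genes, 12 of 19 p53 target genes, 18 of 39 proteasome subunit genes and 32 of 78 mitochondrial ribosomal protein genes. Cytosolic ribosomal protein genes had one in 31 of 84, complex I genes of the respiratory chain in 13 of 36, and RNA polymerase II subunit genes in 4 of 13, with exact 95% intervals that include the share of all genes. Replication-dependent histone genes had one in 14 of 63, ZNF zinc finger genes in 120 of 504 (23.8%), and AP-1 and ATF factor genes in 6 of 22 (FOSL2, JUN, ATF2, ATF3, ATF4 and ATF7).
None of 404 olfactory receptor genes and none of 55 keratin genes had a constitutive site, which allows shares of up to 0.909% and 6.49% (exact 95% limits). HOX genes had one in 2 of 39 (HOXA4 and HOXC13). KRT8 and KRT18, the simple-epithelium keratins, were open in fewer than 9 lists.

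Among SWI/SNF subunit genes 8 of 28 had a constitutive site (28.6%, 13.2 to 48.7). The 8 were SMARCD1, SMARCD2, ARID1B, ARID2, PHF10, ACTL6A, DPF3 and SS18. SMARCA4 and SMARCA2, the ATPases, and ARID1A had sites in fewer lists. SMARCC1 missed the list because EGFP replicate 3 alone had no peak at its start. ACTL6A, an actin-related subunit, had the highest mean percentile of the 8, with values of 87.7, 94.2 and 98.9 in EGFP samples, 98.3, 95.9 and 93.8 in OmoMYC samples and 95, 90.2 and 93.9 in SNF5 samples. Percentile here means the percentage of the 5292 sites with a lower −log10 q in that sample, so that lists of unequal length share 1 scale. In the MYC network MAX, MXD1, MXD4 and MXI1 were constitutive, 4 of 12 genes. MYC itself was not: its start was found in 5 lists.

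MYC bound many of these promoters. Genes with a MYC ChIP-Seq peak within 1 kb of a start in both EGFP samples numbered 1000, and 571 of them (57.1%, 54.0 to 60.2) had a constitutive site, 403 had a site in fewer lists and 26 had none. Of 14702 genes with no MYC peak in either EGFP sample, 17.1% (16.5 to 17.7) had a constitutive site and 51.3% had no site. The count rests on EGFP replicate 1, which had MYC peaks at far fewer genes: with replicate 2 alone 5160 genes had a MYC peak and 2849 of them (55.2%) had a constitutive site, so that 571 or 2849 of the 5365 genes were bound according to which samples are required. The median, over 448 sites, of the mean ATAC-Seq percentile of bound promoters was 45, against 50.1 over 2155 sites of genes with no MYC peak. In SNF5 samples medians at bound promoters were 46.2, 45.2 and 45.5, in EGFP samples 50.2, 49.7 and 46.3, and in OmoMYC samples 49.6, 49.6 and 44.5. The SNF5 samples lay just below the EGFP samples and above OmoMYC replicate 3, and no test was made of this median.

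Most genes with constitutive promoters were transcribed. PRO-Seq maps RNA polymerases that are engaged in transcription, and levels are given per gene length, as RPKM over gene bodies. In EGFP samples the median level of the 4662 PRO-Seq genes with a constitutive site was 1.77, 1.77 and 1.66. It was 1.54 ± 0.0533 (SD, n = 3) for genes whose promoter was found in 8 lists, 1.10 ± 0.0469 for 4 lists, 0.207 ± 0.0127 for 1 list and 0.00464 ± 0.00160 for none. The spread between genes was wide, from 0.888 at the lower quartile to 3.11 at the upper for constitutive promoters. Of the 4662, 4258 (91.3%) passed the count filter of a mean of at least 10 in both regions, against 16.2% of genes with no site. Passing the filter did not mean a high level. CCDC83 and PDLIM5 passed, but in EGFP samples they stood at 0.00135, 0.00623 and 0.00735, and at 0.00413, 0.00247 and 0.00426. These levels are near the median of genes with no site. Within the constitutive class the level was slightly lower where the site ranked higher: over 4 groups of rising mean percentile in EGFP samples the median level was 1.96, 1.84, 1.69 and 1.62 (Spearman −0.076 across 4662 genes, which share libraries).

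**Figure D2:**
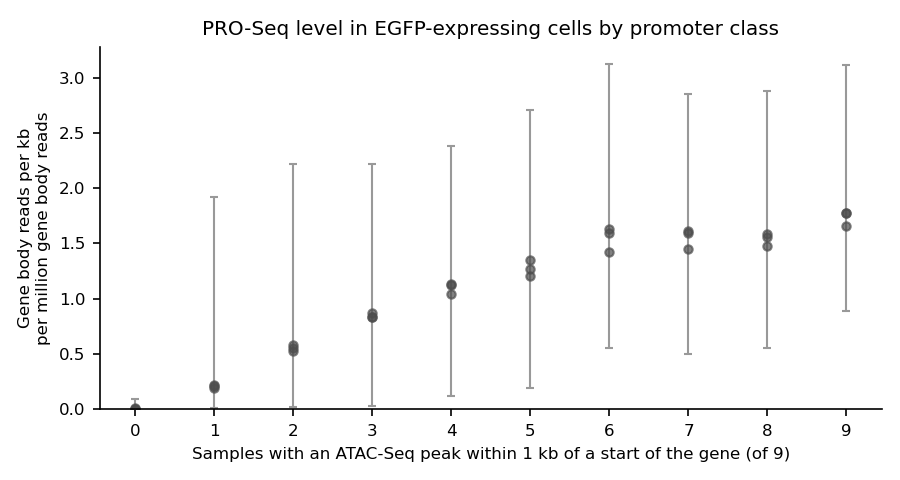
PRO-Seq level in EGFP-expressing cells (RPKM over gene bodies) for genes grouped by the number of ATAC-Seq samples with a peak within 1 kb of a start. Points are the medians of the 3 EGFP samples and grey bars run from the lower to the upper quartile of the genes' mean level. Medians lie near 0 where no list has a peak and reach 1.66 to 1.77 where all 9 do.

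The strongest sites were of another kind. By mean percentile, 10 of the 20 highest were promoters and 9 were distal, and 10 lay in named multi-copy places: mitochondrial pseudogenes and rRNA genes. The highest in every list was a 554 bp site on chromosome 3 beside the centromere (chr3:93470294-93470847), 416 kb from the nearest start, PROS1. It was followed by a mitochondrial pseudogene at MTCYBP13 (chr17:22521274-22521661), a site on chromosome 21 96.8 kb from a start (chr21:7926254-7926561), the start of ENSG00000289474 (chr2:148881630-148881888) and then 2 sites in rRNA genes of chromosome 21. Among the highest 529, 93.0% were promoters, and among the lowest 529 87.9%. In all, 5 of 6 merged sites in mitochondrial pseudogenes and 14 of 14 in rRNA genes were constitutive. Reads from copied sequence cannot be placed with certainty, so these 21 sites (with the 2 of the mitochondrial genome) are uncertain as to place. Sites outside these named places were not checked for copied sequence. Among them are the strongest site, on chromosome 3, and others on chromosome 21, whose place may be as uncertain.

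Some promoters stood near the top in every sample, where the scale itself leaves little room to vary. MRPL50 stood at 98.1, 99.3 and 96.3 in EGFP samples, 90.7, 96.0 and 99.2 in OmoMYC samples and 97.9, 99.4 and 99.3 in SNF5 samples. MRPS30, also of the mitochondrial ribosome, stood at 91.9 to 99.3, ATF2, a CRE-binding factor, at 96.4 to 99.3, and EPRS1, a tRNA synthetase, at 86.5 to 98.7. The highest-ranked promoters of other lists varied more: HOXC13, a homeobox gene, ran from 10.1 to 81.4, H4C1, a histone gene, from 2.60 to 73.5 and POLR2I, an RNA polymerase II subunit gene, from 31.0 to 65.1. In all, 121 sites (2.29%) were in the top 10% in all 9 samples and 1237 were there in at least 1. Only 4 were in the bottom 10% in all 9, against 1867 in at least 1. Over all members the percentile ranged over a median of 42.8 points between the 9 samples, and the median SD among replicates was 11.8 points for EGFP, 13.3 for OmoMYC and 9.83 for SNF5.

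The edge of the choice was set by the weakest lists. Of the 3 members with the lowest −log10 q, 1 was at EPHA4 (3.14 in OmoMYC replicate 1) and 1 at ACBD5 (3.69 in EGFP replicate 3). The other was a distal site 72747 bp from the nearest start, ENSG00000286481 (3.67 in OmoMYC replicate 1). The 3 strongest sites with a peak in 8 lists were near ENSG00000242477, SLC38A9 and NRBF2, with mean −log10 q of 37.7, 36.3 and 32.4, and each lacked a peak in OmoMYC replicate 1 alone.

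The share of each list taken up by constitutive sites was lower in longer lists. It was 46.3%, 31.7% and 62.2% of peaks in EGFP samples, 78.1%, 23.7% and 47.0% in OmoMYC samples and 16.4%, 21.4% and 25.2% in SNF5 samples, so that SNF5 lay below every EGFP sample. Among each list's strongest 10% the shares were 98.7%, 96.5% and 97.5%, then 98.5%, 92.2% and 96.2%, then 86.9%, 90% and 89.6%, with SNF5 again below all others. Every list holds the same 5292 sites by the choice of members (5504 to 5783 peaks), so these shares largely restate the length of the list, and no p-value is given for them.

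The rank comparison asked whether, within this set, expression of SNF5 or OmoMYC moved any site up or down the list. No constitutive site passed. With limma and Benjamini-Hochberg adjustment over all sites with a peak in all 6 samples, 0 of 5292 rose and 0 fell with SNF5 against EGFP (0% of the 7378 tested in either direction), with a smallest adjusted p of 0.696. For OmoMYC against EGFP it was 0 of 5305 (smallest 0.998), and for SNF5 against OmoMYC 0 of 6002 (smallest 0.876). At an unadjusted limma p under 0.05 there were 345, 137 and 209 members (6.52%, 2.59% and 3.95%). Of all sites tested the shares were 6.44%, 2.58% and 4.15%, so these counts say nothing particular about the members. The differences had SDs of 12.8, 12.1 and 12.9 points and about 60% of them were smaller than 10 points (61.4%, 62.3% and 60.4%), against a median standard error of 11.7, 13.2 and 12.1 points. Data were simulated for the first comparison with 1 spread for every site (SD 12.2 points, the median of the tested sites). There a shift of 40 points was recovered at 81% of sites and a shift of 20 points at 0%. Spread differed between the real sites, and real differences of up to 51.6 points were not called. The 81% can therefore overstate what would be found in the real data. The 0% for a shift of 20 points holds for this common spread and for sites placed in the middle of the scale. Sites with a smaller spread, or near the ends of the scale, were not simulated.

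**Figure D3:**
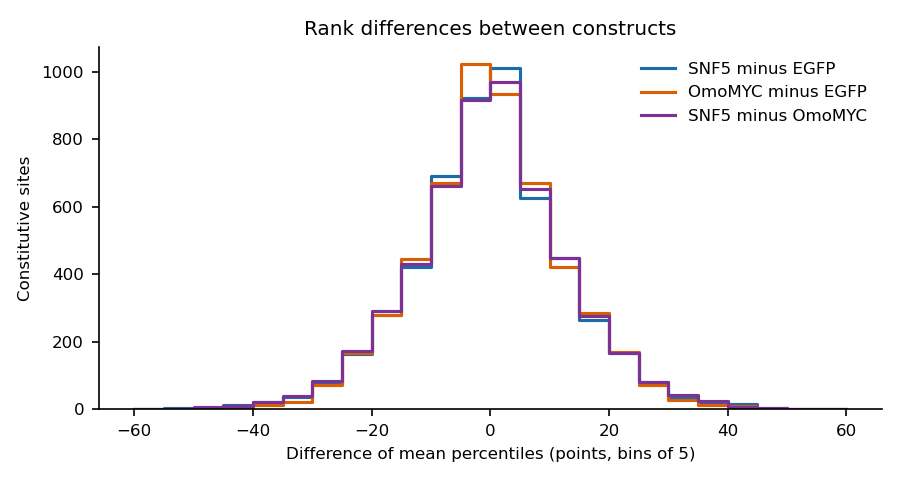
Differences of mean percentile between constructs at the 5292 constitutive sites, in bins of 5 points, for SNF5 minus EGFP, OmoMYC minus EGFP and SNF5 minus OmoMYC. The 3 curves are alike and centred near 0, with SDs of 12.8, 12.1 and 12.9 points.

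Some sites nevertheless had percentiles that did not overlap between 3 and 3 samples. With SNF5, 299 members (5.65%) lay above all EGFP samples, against 5.84% of all sites tested, and 341 (6.44%) lay below, against 6.09%. With OmoMYC 203 lay above (background 3.85%) and 209 below (3.94%). For SNF5 against OmoMYC 268 lay above (4.78%) and 252 below (5.21%). All of these shares are near the background of the sites tested, which for OmoMYC against EGFP are nearly all members, so the counts say nothing particular about the members. The sites named next had the largest differences among those without overlap and did not pass the test.

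The 5 largest upward differences with SNF5 were at ETV3, ACO1, SOD2-OT1, ZNF708 and a distal site. The site of ETV3, an ETS-family repressor (chr1:157138219-157138904), stood at 12.4, 22.8 and 16.8 in EGFP samples, at 3.44, 27.6 and 64.7 in OmoMYC samples and at 71.0, 67.9 and 58.6 in SNF5 samples. SNF5 samples lay above all EGFP samples, and OmoMYC samples spanned both groups. The difference from EGFP was 48.5 points (SE 14.0, limma adjusted p = 0.696). ACO1, the cytosolic aconitase that also senses iron, stood at 1.05, 30 and 19.4 with EGFP and at 64.3, 68.2 and 62.1 with SNF5 (48.1 points, SE 14.5). ZNF708, a C2H2 zinc finger gene, stood at 11.1, 3.68 and 32.7 with EGFP and at 65.6, 49.6 and 65.2 with SNF5. SOD2-OT1, a transcript beside superoxide dismutase 2, stood at 46.9, 8.91 and 22.2 with EGFP, 62.3, 70.9 and 64.1 with OmoMYC and 68.9, 75.4 and 74.2 with SNF5, so that both other constructs were higher than EGFP. A distal site 43.2 kb from HSP90AA2P stood at 32.3, 25.7 and 33.7 with EGFP and 83.8, 81.8 and 60.8 with SNF5. JUN, the AP-1 subunit, had the largest rank difference of the AP-1 and ATF factors: 61.4, 58.8 and 84.2 with EGFP against 92.2, 93.8 and 93.6 with SNF5.

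Of the sites whose SNF5 samples lay below all EGFP samples, the 5 with the largest differences were not promoters. A 253 bp site 4.89 kb from EIF3FP1 (chr21:10325709-10325961) stood at 91.8, 48.8 and 81.3 with EGFP, 96.1, 10.5 and 79.2 with OmoMYC and 15.2, 34.5 and 19.9 with SNF5 (−50.7 points, SE 15.4, limma adjusted p = 0.696). The other 4 lay 74.9 kb or more from any start: 3 close together on chromosome 16, and 1 on chromosome 4 (chr4:49321329-49321592). The chromosome 16 site at chr16:34582154-34582464 stood at 66.3, 39.7 and 45.2 with EGFP, 67.9, 1.46 and 29.9 with OmoMYC and 1.90, 3.07 and 9.89 with SNF5. In each of the 5, OmoMYC replicate 2, whose list was the longest of the OmoMYC and EGFP lists, lay within or below the range of the SNF5 samples.

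These sites belonged to a wider group. Of the 329 distal sites, 100 lay over 50 kb from any start, a limit chosen after their values were seen. Their median percentile was 72.3, 55.2 and 76.7 in EGFP samples, 94.0, 38.2 and 72.2 in OmoMYC samples and 48.2, 40.3 and 57.8 in SNF5 samples. Shorter lists tended to have the higher medians, but not in strict order. OmoMYC replicate 1, with 7260 peaks, was highest. OmoMYC replicate 2, with 23684 peaks, was lowest although the SNF5 lists of replicates 1 and 2 were longer. SNF5 replicate 1, the longest list with 33596 peaks, stood above SNF5 replicate 2, and SNF5 replicate 3 stood above the shorter EGFP replicate 2. SNF5 samples lay below EGFP replicates 1 and 3 and overlapped EGFP replicate 2. Of the 100, 33 did not overlap downward with SNF5 and 3 upward, against 6.09% and 5.84% of all sites tested. For OmoMYC the counts were 3 and 1, against 3.94% and 3.85% of all sites tested. The 137 tested sites over 50 kb from a start that were not constitutive had 7 downward and 8 upward. Chromosome 21 held 9 of the 33 and chromosome 16 held 6. The 9 lay between positions 8208819 and 9819319, a stretch that also holds the rRNA gene sites named above. Chromosome 5 held 4, between 49599494 and 49666330, and chromosome 17 held 3, between 25920075 and 26885557. Distance from a start does not make such sites enhancers, and their function was not tested.
The 227 distal sites at 5 to 50 kb did not show this: their medians were 36.3, 34.1 and 40.5 with EGFP, 32.6, 36.3 and 44.7 with OmoMYC and 39.9, 35.8 and 37.8 with SNF5. Over all 329 distal sites the median percentile averaged 43.9 ± 3.58 for EGFP, 43.4 ± 6.93 for OmoMYC and 40 ± 3.73 for SNF5 (SD, n = 3), and the groups overlapped. Promoter sites stood at 50.4 to 51.5 in every sample, as their number fixes. Whether list length or repeated sequence accounts for the far sites was not tested.

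**Figure D4:**
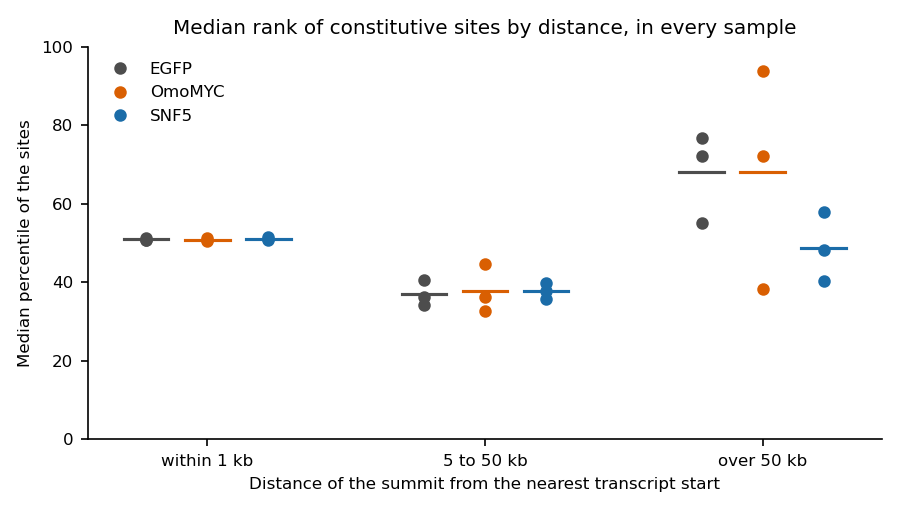
Median percentile of the constitutive sites in each sample, by distance of the summit from the nearest transcript start; points are samples and bars the means of 3. Promoter medians lie at 50.4 to 51.5 in every sample, and the 100 sites over 50 kb from a start run from 38.2 to 94.0.

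Other promoters had lower percentiles with SNF5 than with OmoMYC. KIF1B, a kinesin gene, stood at 49.0, 59.4 and 81.1 with EGFP, 57.9, 69.5 and 65.3 with OmoMYC and 15.4, 20 and 30.9 with SNF5, so that SNF5 lay below both. XRCC6, the Ku70 DNA repair gene, stood at 56.9, 46.8 and 16.4 with EGFP, 60.0, 37.3 and 64.9 with OmoMYC and 1.07, 13.4 and 10.9 with SNF5 (−45.6 points against OmoMYC, SE 12.4, limma adjusted p = 0.876). HERC3, a ubiquitin ligase gene, stood at 33.5, 27.9 and 28.5 with EGFP, 72.1, 61.6 and 47.1 with OmoMYC and 3.32, 14.2 and 10.5 with SNF5, so that the 3 constructs did not overlap. UBE2Q1, a ubiquitin-conjugating enzyme gene, followed with 17.9, 46.5 and 19.3, then 57.2, 59.3 and 56.0, then 5.57, 8.87 and 20.6. Higher with SNF5 than with OmoMYC were CAST, the calpain inhibitor, at 72.5, 61.7 and 87.9 against 9.08, 33.2 and 20.2, and NFE2L1-DT at 42.8, 46.2 and 56.2 against 2.35, 7.23 and 2.28.

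With OmoMYC, 9 of the 10 named differences from EGFP were at promoters, and the other was a distal site 11.0 kb from MAP2K3, at 6.21, 21.6 and 23.8 with EGFP and 52.4, 67.3 and 59.3 with OmoMYC (42.5 points). KLHL20, a ubiquitin ligase adaptor gene (chr1:173714775-173715359, the ETS word shown above), stood at 5.32, 38.8 and 13.4 with EGFP and at 71.3, 71.3 and 71.6 with OmoMYC (52.2 points, SE 15.2, limma adjusted p = 0.998). IARS1, the isoleucyl-tRNA synthetase gene with an E-box, stood at 25.5, 39.0 and 32.2 with EGFP and 93.7, 51.6 and 83.3 with OmoMYC. NUCB2, a calcium-binding protein gene, stood at 27.5, 48.8 and 16.4 with EGFP, at 83.1, 76.0 and 67.8 with OmoMYC and at 89.8, 42.8 and 83.1 with SNF5. Among the sites that lay lower, TRMT10C, a mitochondrial tRNA methyltransferase gene, stood at 87.7, 62.8 and 74.6 with EGFP, 3.00, 61.3 and 34.7 with OmoMYC and 43.8, 29.5 and 37.2 with SNF5. COPB1, a coat protein of Golgi vesicles, stood at 63.1, 78.0 and 91.7 with EGFP, 19.9, 49.4 and 39.9 with OmoMYC and 32.9, 25.2 and 54.5 with SNF5. TBL1XR1, a corepressor subunit gene, stood at 83.2, 57.2 and 63.8 with EGFP and 19.2, 30.6 and 34.6 with OmoMYC. Both comparisons with EGFP use the same EGFP samples.

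**Figure D5:**
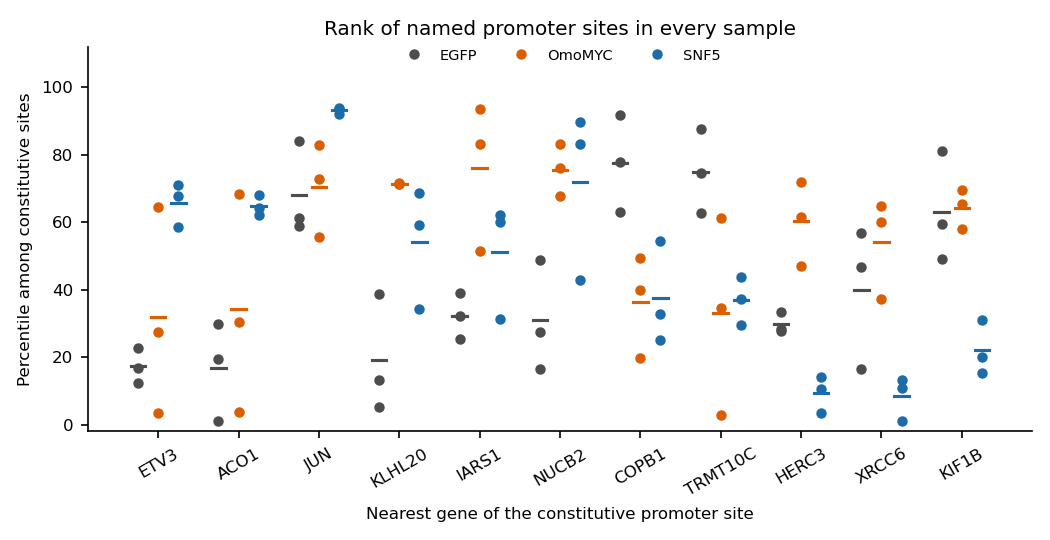
Percentile among the constitutive sites of 11 promoter sites in every sample, by construct; points are samples and bars the means of 3. At ETV3 and ACO1 the SNF5 samples lie above the EGFP samples, at XRCC6 and KIF1B below, and at KLHL20 the OmoMYC samples lie at 71.3 to 71.6; none passed the test over all sites.

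By gene list, the larger median differences of rank came from lists of few sites. They were −7.81 points with SNF5 and −7.91 with OmoMYC for 4 MYC network sites, 6.11 and 8.95 for 6 AP-1 and ATF sites, −1.63 and 8.76 for 4 RNA polymerase II sites, −15.0 and 18.7 for 2 HOX sites, −3.31 and 12.6 for the VIM site, and −0.624 and 5.25 for 9 histone sites. In the other lists they ran from −2.78 to 3.28 with SNF5 and from −2.32 to 1.34 with OmoMYC. For zinc finger (ZNF) genes the median over 117 sites was 42.4, 43.3 and 43.7 in the EGFP samples taken in order of size, 42.8, 45.6 and 47.5 with OmoMYC and 48.9, 50.1 and 51.3 with SNF5. For SNF5 against EGFP the two-sided exact permutation p was 0.1, the smallest that 3 samples against 3 allow, and 0.988 after Benjamini-Hochberg adjustment over the 81 per-sample summaries tested. Cytosolic ribosomal protein promoters ranked low, with a median of 35.8 over 31 sites, and aminoacyl-tRNA synthetase promoters high, at 62.3 over 24. RPS24 stood at 13.3, 28.6 and 44.8 with EGFP, 46.0, 38.9 and 59.3 with OmoMYC and 33.7, 54.2 and 56.0 with SNF5. The start of SNHG15, a snoRNA host gene, stood at 8.40, 31.3 and 12.3, then 25.6, 20.4 and 27.7, then 44.9, 17.7 and 30.8. METTL1, the tRNA methyltransferase gene, stood at 44.2, 21.3 and 18.8, then 8.57, 53.4 and 1.86, then 40.1, 18.2 and 26.7. At all 3 the constructs overlapped. Promoters with an E-box had a median difference with SNF5 of −0.53 points over 522 sites, against 0.23 over the 3440 without, and with OmoMYC of −0.050 against −0.21.

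Nascent transcription at the same genes was tested as a second readout, with edgeR's quasi-likelihood test over 11171 genes and the replicate number as a block. With SNF5, gene body counts rose at 654 of the 4258 tested genes with constitutive promoters (15.4%, against 12.6% of all genes tested) and fell at 765 (18%, against 21.3%). With OmoMYC they rose at 267 (6.27%, against 5.25%) and fell at 314 (7.37%, against 7.04%). In the promoter-proximal window 71 rose with SNF5 (background 2.62%) and 64 fell (1.66%), and 68 rose with OmoMYC (1.72%) and 4 fell (0.170%). Totals in that window were 517821 to 671718 counts in replicate 1 of the 3 constructs and 2024662 to 3381189 in replicates 2 and 3, and their part in these counts was not tested. Median log2 fold changes in the gene body were −0.036 with SNF5 at constitutive promoters, −0.11 at genes whose site was found in fewer lists and −0.074 over all genes. With OmoMYC the 3 medians were −0.027, −0.048 and −0.031.
These calls rest on the block. Without it, gene body calls at constitutive promoters were 43 with SNF5, 41 up and 2 down, and 0 with OmoMYC. With SNF5, leaving out replicate 1 gave 221 up and 87 down, leaving out replicate 2 gave 253 up and 50 down, and leaving out replicate 3 gave 1040 up and 1618 down, so that which direction held more calls turned with the setting. With OmoMYC the same left 1 up and 0 down, 1 up and 0 down, and 878 up and 1498 down. The counts of these alternative fits are not set beside the shares of all genes tested. They therefore describe the fits and say nothing particular about constitutive promoters.

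The genes with constitutive promoters that rose most with SNF5 were LGR4, AASS, KLF5, PDLIM5 and CCDC83. LGR4, an R-spondin receptor of the WNT pathway, had gene body counts of 268, 254 and 1503 with EGFP, 434, 332 and 1590 with OmoMYC and 3656, 3020 and 4741 with SNF5, a log2 fold change of 2.82 (SE 0.31, edgeR adjusted p = 0.00048). SNF5 samples were above all others, and replicate 3 was high in every construct. KLF5, an epithelial zinc finger factor, had 61, 58 and 37 with EGFP and 587, 533 and 103 with SNF5 (2.62, SE 0.30). AASS, of lysine breakdown, had 12, 16 and 31 with EGFP and 94, 98 and 216 with SNF5. PDLIM5, a cytoskeletal adaptor gene, rose by 2.42 and CCDC83 by 2.40.
For SNF5 against EGFP, AASS and PDLIM5 passed without the block (edgeR adjusted p = 0.0279 and 0.0180) and LGR4 and KLF5 did not (0.158 and 0.156). CCDC83 did not pass without the block (0.175) or without replicate 2 (0.0521).

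Genes that fell most with SNF5 had smaller changes. RGS2, a regulator of G-protein signalling, had 1028, 1154 and 2755 with EGFP, 654, 610 and 2268 with OmoMYC and 629, 679 and 1162 with SNF5 (log2 fold change −1.05, SE 0.14, edgeR adjusted p = 0.0011). EOMES, a T-box factor, changed by −1.07, NR4A2, an orphan nuclear receptor, by −1.04, ALYREF, an mRNA export factor, by −0.92 and GEMIN6, of the SMN complex, by −0.87. None of the 5 passed without the block (edgeR adjusted p = 0.0880 to 0.606). NR4A2 also did not pass without replicate 1 (0.0970) or replicate 2 (0.119), nor GEMIN6 without replicate 2 (0.118).
SNHG15 fell with both constructs, by −0.46 with SNF5 (edgeR adjusted p = 0.0034) and −0.72 with OmoMYC (0.0081), and RPS24 with OmoMYC by −0.35 (0.025). Neither fall with OmoMYC passed without the block, without replicate 1 or without replicate 2, where no gene with a constitutive promoter was called down.

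Rank in ATAC-Seq and transcription were set side by side for the genes whose sites did not overlap. Among 215 tested genes at sites that were higher with SNF5, gene body counts rose at 35 (16.3%) and fell at 40 (18.6%). Among 252 at sites that were lower, they rose at 37 (14.7%) and fell at 52 (20.6%). Of all 4258, 15.4% rose and 18% fell. Median log2 fold changes were −0.035 and −0.048, against −0.036. For OmoMYC they were −0.020 at 157 higher and −0.022 at 168 lower sites, against −0.027. Single genes went either way. At ACO1, counts were 1362, 1141 and 2113 with EGFP and 2459, 2038 and 2368 with SNF5 (log2 fold change 0.47, SE 0.09, edgeR adjusted p = 0.0058) and the ATAC-Seq site was higher. At ETV3, counts were 1389, 1215 and 1663 with EGFP and 1597, 1319 and 1869 with SNF5 (0.02, SE 0.08, adjusted p = 0.85), while the site's rank difference was the largest upward one with SNF5. At COPB1, whose site was lower with SNF5, counts rose by 0.24 (adjusted p = 0.031).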

How the data were processed

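For ATAC-Seq the authors trimmed reads with cutadapt, used Bowtie2 on hg38 and ran MACS2 sample by sample. The deposited peak lists hold a fold ratio over local background and −log10 p and q values, but no read counts. The study tabulates read depth per library; it was not used here, and the number of peaks is the length of a list, not its depth. MYC ChIP-Seq peaks and PRO-Seq values were deposited on hg19. The PRO-Seq table deposited by the authors holds raw counts for a promoter-proximal window and the gene body, 28388012 to 46859674 gene body counts per sample, and a gene body signal (density), which was used for gene lengths. IgG and OMOMYC ChIP-Seq peaks were not used here.

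Overlapping peaks were merged, and sites in all 9 lists kept. The summit of the strongest peak was set against GENCODE release 44 starts at the GRCh38 positions that the annotation lists, and hg19 peaks against GRCh37 starts; no coordinate was converted, and genes were joined by symbol. Of 20367 PRO-Seq symbols 83.4% matched. Each site's highest −log10 q was turned into a percentile among constitutive sites, ties shared equally. Percentiles were compared with limma 3.58.1 (trend) on the 6 samples of a comparison, counts with edgeR 4.0.16 in all 9 samples, offsets from gene body totals and RLE factors, and an adjusted p under 0.05 was a call. Sample summaries had exact permutation tests. Both fits were checked on simulated data. PRO-Seq replicate numbers pair the samples: same-numbered deviations correlated at 0.812 to 0.922 and others at −0.764 to 0.287, and the study's methods account for batch.

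The members, gene lists and motifs were chosen with earlier results of these data known. Genes and sites were named by a fixed rule: the highest, widest and strongest distal sites, the 8 largest called differences each way per comparison (with none called, the 5 largest without overlap), the boundary sites, up to 4 members per list (highest mean percentile and largest SNF5 difference), genes the study names, and the 5 largest PRO-Seq changes each way. The sequence of distal sites was not analysed here. DESeq2 1.42.0, TMM factors, other filters and left-out samples were alternatives. No other columns of samples were used.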

Additional observations from a re-analysis of the deposited data

How the results depend on the processing

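The count of constitutive sites was 5292; lists cut to equal length by strength gave 3242, and leaving out each sample gave 5292 to 6907, the highest without OmoMYC replicate 1. The share near a start was 86.5% with protein-coding genes and 87.5% with the study's TSS-proximal window. The distal median with SNF5 minus EGFP ran from −4.46 to −3.25 points without each replicate number. ATAC-Seq replicate numbers did not pair the samples (same-numbered deviations correlated at −0.019 to 0.13, others at −0.11 to 0.079), and the replicate block gave 0, 0 and 0 calls. No site was called in any leave-one-out fit (0 to 0 calls), including those without OmoMYC replicate 1 or 2 or EGFP replicate 2, which were added after the data were seen, as were fits on promoter sites only. With ranks turned into normal scores 1 member was called for SNF5 against EGFP, a distal site 1061 kb from a start (chr17:25920075-25920333, adjusted p = 0.0498; 99.6, 99.5 and 99.2 with EGFP and 92.3, 87.0 and 93.8 with SNF5); it was chosen after its values were seen. For 30 named sites, all 350 alternative fits kept the direction and the side of the threshold. The sites were chosen for samples that did not overlap, which largely fixed the direction in advance. Their adjusted p values also lay far above 0.05. These fits therefore say little about how steady the differences are.

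PRO-Seq counts at constitutive promoters moved most, and the shares of all genes tested are not set beside them here. For gene bodies, OmoMYC and SNF5 calls were 581 and 1419; with no replicate block 0 and 43, and leaving out a replicate number 1 to 2376 and 303 to 2658. DESeq2, TMM and the looser count filter stayed within 1.5 times. For the promoter-proximal window they were 72 and 135; with no replicate block 0 and 0, and leaving out a number 2 to 346 and 8 to 349. There DESeq2 gave 45 and 91, and the looser filter 106 and 205. Of 420 alternative fits of 60 named gene and construct pairs, 76 lost the call, 14 gained one and 0 reversed a call. The causes were not tested. The peak lists hold no read counts, and shifts of 20 points were not recovered in the simulation with 1 common spread.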
